A study of Mus musculus with 48 samples.

Results

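The genes of the MHC class II presentation pathway were followed in the thoracic aorta of mice given β-aminopropionitrile (BAPN), an inhibitor of lysyl oxidase that leaves collagen and elastin of the aortic wall poorly cross-linked. The 10 genes were chosen by name, as Cd74, H2-Aa, H2-Ab1, H2-Eb1, H2-DMa, H2-DMb1, H2-DMb2, H2-Oa, H2-Ob and Ciita, out of the 18782 genes of the deposited table. All 10 were in the table, and all 10 passed the filter on low counts, which kept 14431 genes. RNA-seq had been made from 48 wild-type C57BL/6J mice, 1 library per mouse. MaCon (n = 10) and FeCon (n = 10) were males and females that drank normal water for 28 days from 3 weeks of age. MaNonAD (n = 4) and FeNonAD (n = 8) had drunk water with 0.4% BAPN for 28 days from 3 weeks of age and had no detectable aortic lesion at the end, whereas MaAAD (n = 7) and FeAAD (n = 9) had had the same treatment and had developed aortic dissection or aneurysm. NonAD and AAD were told apart by outcome after the same treatment, only mice alive at the end were sequenced, and mice shared cages, so the p-values below measure the spread between mice within these groups.

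MHC class II molecules are pairs of an α and a β chain that carry peptides from endosomes to the cell surface, where CD4 T cells read them. The new pair is held by the invariant chain (Cd74), whose last fragment is exchanged for an antigen peptide with the help of the DM pair, while the DO pair restrains DM. The coactivator CIITA switches these genes on together by docking on factors bound to a conserved set of promoter boxes. Dendritic cells, B cells and activated macrophages are the best known class II cells, and smooth muscle and endothelial cells can be induced to make class II by interferon-γ.

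The promoter boxes are shown here because they are the sequence feature that class II genes share and that the counts below, read gene by gene, can be set against. Promoters were read from RefSeq sequences of GRCm38.p6, in the 250 bases before each annotated start, and 7 of the 10 genes had one. The genes Cd74, H2-Ab1 and Ciita had no entry. The 8 H2 genes lie on chromosome 17, from the start of H2-Oa at 34092340 to the end of H2-Eb1 at 34316674. Each line below gives 85 bases in the direction of transcription, before the start that RefSeq gives. GENCODE M21 starts H2-Oa, H2-DMb1 and H2-DMb2 further upstream, so the stretches of these genes lie partly or wholly inside the GENCODE gene. Capitals mark ATTGG, the Y box core bound by NF-Y, in all 6, AACNNATG, letters like those of the X1 box bound by the RFX complex, in H2-DMb1, H2-DMb2, H2-Eb1 and H2-Ob, and TGACGT, letters like those of the X2 box, in H2-Aa.
H2-DMb1: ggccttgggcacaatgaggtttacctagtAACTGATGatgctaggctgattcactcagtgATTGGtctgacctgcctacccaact
H2-DMb2: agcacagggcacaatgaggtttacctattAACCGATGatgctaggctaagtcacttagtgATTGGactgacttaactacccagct
H2-Eb1: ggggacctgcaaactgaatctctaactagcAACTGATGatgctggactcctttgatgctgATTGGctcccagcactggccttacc
H2-Ob: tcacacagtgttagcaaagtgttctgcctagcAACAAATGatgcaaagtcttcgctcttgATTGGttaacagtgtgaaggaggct
H2-Aa: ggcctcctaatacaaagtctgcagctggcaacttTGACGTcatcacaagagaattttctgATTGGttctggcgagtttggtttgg
H2-Oa: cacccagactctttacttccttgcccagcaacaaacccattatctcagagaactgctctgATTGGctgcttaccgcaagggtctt
The stretches lie at chr17:34153070-34153154 for H2-DMb1, chr17:34145099-34145183 for H2-DMb2, chr17:34305748-34305832 for H2-Eb1, chr17:34238788-34238872 for H2-Ob and chr17:34092276-34092360 for H2-Oa on the forward strand, and at chr17:34287847-34287931 for H2-Aa on the reverse strand. The Y box core began between 43 bases (H2-Oa) and 90 bases (H2-DMb2) before the start. In H2-DMb1, H2-DMb2, H2-Eb1 and H2-Ob the X1-like letters stood 20 to 23 bases before it. That arrangement, AACNNATG followed 15 to 30 bases later by ATTGG on either strand, was found in 40 of 32851 promoters of the same length (0.122%), and 4 of those 40 were of these genes. Singly the letters were commoner. CCAAT, which is ATTGG read on the other strand, was in 33.9% of promoters and in 7 of the 8 promoters of these genes, where H2-DMa has 2. AACNNATG was in 7.71%, TGACGT in 6.47%, of these genes in H2-Aa alone, and TGACTCA in 4.46%, of these genes in H2-DMa alone.

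Library totals ranged from 13548000 to 17281273 counts, and levels are given as CPM, the count scaled to the size of its library. Smooth muscle, the main cell type of the aortic wall, was present throughout, as its 7 markers summed to between 11780 and 59960 CPM in every library. They were lower in AAD, with medians of 20640 CPM in MaAAD and 21620 CPM in FeAAD beside 41110 CPM in MaCon and 43070 CPM in FeCon. A few libraries stood apart. FeAAD5 and MaAAD7 had the highest sums of leukocyte, pan-macrophage, monocyte and neutrophil markers of their groups, and FeAAD9 had the highest sum of B cell markers. MaCon2 had a sum of thymocyte markers of 324.5 CPM against a MaCon median of 52.9 CPM, and MaCon10 had the highest levels of the main class II chains among the controls. MaAAD1 and FeAAD6 had the highest sums of lymph node stroma markers of their groups, 97.9 and 159.7 CPM against medians of 23.7 and 18.4 CPM, and FeAAD6 also had the highest H2-Aa, H2-Eb1 and Ciita levels of FeAAD. The counts of the 10 class II genes called were recomputed without each library in turn, and those of the marker and pathway lists were not.

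All 10 genes were higher in AAD than in Con, in both sexes. A gene was called when edgeR's quasi-likelihood test, fitted across all genes, gave a Benjamini-Hochberg adjusted p under 0.05 and the log2 fold change was 1 or more in size. By this rule 10 of 10 were called higher in MaAAD vs MaCon, where 9.18% of the 14431 genes tested were called higher, and 10 of 10 in FeAAD vs FeCon, where 9.94% were. The log2 fold changes ran from 1.32 (H2-DMb1) to 3.14 (H2-Oa) in males, with a median of 1.94, and from 1.54 (Cd74) to 3.81 (H2-Oa) in females, with a median of 1.91, beside medians over all tested genes of -0.03 and 0.00. Both counts stayed at 10 when any 1 library was left out and in each of 7 other settings. Every MaAAD library lay above every MaCon library for 6 of the 10 genes, against 6.14% of all genes tested, and every FeAAD library above every FeCon library for 7 of the 10, against 3.63%. In whole tissue, fewer cells of a type and less RNA per cell cannot be told apart.

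**Figure D1:**
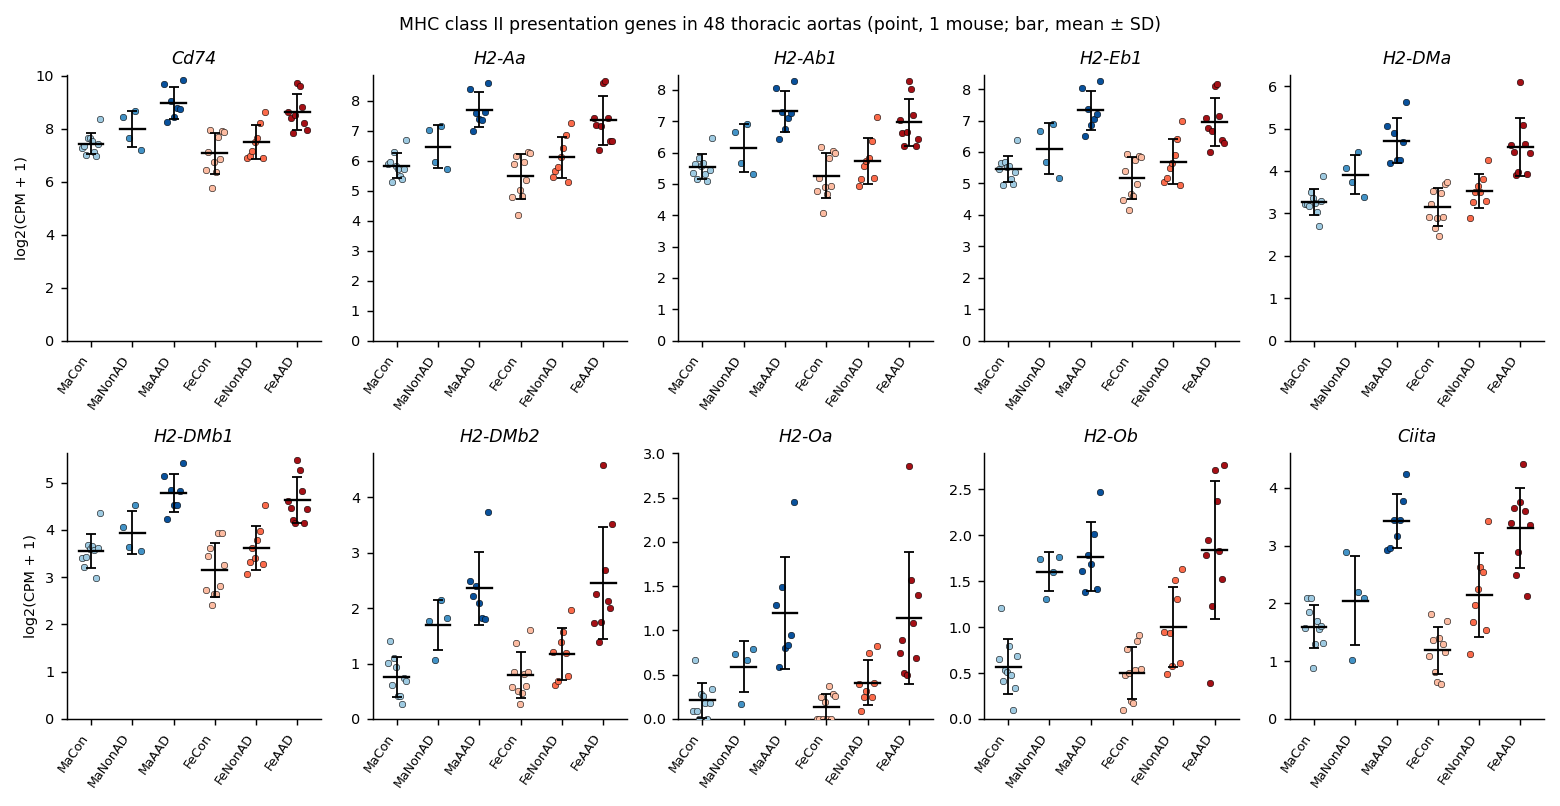
Levels of the 10 MHC class II genes in 48 libraries, as log2(CPM + 1) on the y axis, with 1 point per mouse and bars for the mean ± SD of each group on the x axis. In every panel both AAD groups have a higher mean than the Con group of their sex, and the NonAD groups lie between.

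Cd74, the invariant chain, was the most abundant of the 10. Per kilobase of its longest transcript its mean level was 126.5 CPM in the 10 MaCon libraries, with an SD of 41.1, and 384.4 CPM in the 7 MaAAD libraries, with an SD of 168.0. In CPM it ran from 124.6 through a median of 165.9 to 325.2 in MaCon, and from 307.4 through 436.9 to 915.2 in MaAAD. A single control, MaCon10, reached into the range of MaAAD, since the next highest MaCon library had 198.2 CPM. In females Cd74 ran from 52.6 through 126.6 to 247.5 CPM in FeCon and from 227.9 through 364.8 to 837.0 CPM in FeAAD, and the ranges overlapped. The log2 fold changes were 1.60 ± 0.30 (SE, adjusted p = 3.81e-05, edgeR's quasi-likelihood test) in males and 1.54 ± 0.29 (adjusted p = 2.49e-05) in females.

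The classical chains, the α chain gene H2-Aa and the β chain genes H2-Ab1 and H2-Eb1, moved by nearly equal amounts. H2-Ab1 ran from 33.1 through a median of 44.9 to 86.5 CPM in MaCon and from 86.3 through 153.9 to 309.6 CPM in MaAAD. It ran from 15.9 through 32.7 to 71.4 CPM in FeCon and from 73.0 through 99.1 to 310.0 CPM in FeAAD. The female groups did not overlap, and the male groups touched only through MaCon10. The log2 fold changes of H2-Ab1 were 1.87 ± 0.32 (adjusted p = 1.07e-05) in males and 1.77 ± 0.31 (adjusted p = 9.26e-06) in females by edgeR's quasi-likelihood test. For H2-Aa they were 1.94 ± 0.32 and 1.96 ± 0.31, and for H2-Eb1 1.95 ± 0.32 and 1.87 ± 0.30, with no overlap between Con and AAD in either sex for either gene. Within a group the spread was wide, and FeCon alone ranged over 15.9 to 71.4 CPM for H2-Ab1. Per kilobase of longest transcript, the order of mean levels in all 6 groups was Cd74, H2-Ab1, H2-Eb1 and H2-Aa. In CPM, not divided by length, H2-Aa had the highest mean of the classical chains in all 6 groups. In MaCon it had 57.9 CPM, beside 47.6 for H2-Ab1 and 44.9 for H2-Eb1. The longest transcripts used were of 3223 bases for H2-Aa, 1212 for H2-Ab1 and 1669 for H2-Eb1. Which transcripts were expressed was not measured. The step per kilobase from H2-Ab1 to H2-Eb1 was smaller than the SD of H2-Ab1 between mice in every group. In FeAAD the means were 117.1 CPM (SD 71.2) and 84.1 CPM (SD 49.6) per kilobase. Both genes were counted in the same libraries and had an r of 0.983 within groups, so this SD is not the spread of the step.

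The DM genes encode the peptide exchange factor, H2-DMa its α chain and H2-DMb1 and H2-DMb2 alternative β chains. H2-DMa had median levels of 8.40 CPM in MaCon and 24.7 CPM in MaAAD, and of 7.45 CPM in FeCon and 20.8 CPM in FeAAD, without overlap in either sex. Its log2 fold changes were 1.60 ± 0.25 in males and 1.64 ± 0.24 in females. H2-DMb1 changed least in males, by 1.32 ± 0.24, and by 1.56 ± 0.23 in females. H2-DMb2 was far lower in controls, at 3 to 25 counts per library in MaCon and 3 to 31 in FeCon, and reached 40 to 211 counts in MaAAD and 26 to 389 in FeAAD. Its log2 fold changes were 2.66 ± 0.46 (adjusted p = 1.18e-05) and 2.92 ± 0.45 (adjusted p = 8.77e-07) by edgeR's quasi-likelihood test. The highest H2-DMb2 levels were 12.3 CPM in MaAAD7 and 23.0 CPM in FeAAD5, and the median of their groups was 3.66 and 3.37 CPM. H2-DMb1 and H2-DMb2 are near-identical neighbors, and both had fractional counts in 35 of 48 libraries, where reads had been shared out between genes, so the split between them is uncertain.

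The DO pair, which restrains DM and is best known from B cells, had the lowest levels per kilobase of the chains in controls, and both of its genes had larger log2 fold changes in AAD vs Con than the classical chains. H2-Ob, its β chain, was counted 1 to 20 times per library in MaCon and 26 to 78 times in MaAAD, with no overlap. In females it was counted 1 to 12 times in FeCon and 5 to 96 times in FeAAD, and only FeAAD3, with 5 counts, lay within the range of FeCon. In CPM the medians of H2-Ob were 0.434 in MaCon, 2.21 in MaAAD, 0.431 in FeCon and 2.56 in FeAAD. The log2 fold changes of H2-Ob were 2.27 ± 0.41 (adjusted p = 2.21e-05) and 2.74 ± 0.40 (adjusted p = 4.28e-07) by edgeR's quasi-likelihood test. H2-Oa, the α chain, was at 0 to 9 counts in MaCon and 0 to 4 in FeCon, against 8 to 77 in MaAAD and 7 to 106 in FeAAD. Its fitted log2 fold changes, 3.14 ± 0.60 and 3.81 ± 0.62, rest on these few control counts. MaCon2 alone held the 9 counts that overlapped with MaAAD, at 0.589 CPM where the next MaCon library had 0.269 CPM. FeAAD5 held the 106 counts of H2-Oa, and the next FeAAD library was at 1.98 CPM beside its 6.27 CPM.

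Ciita, the coactivator, was counted 12 to 51 times per library in MaCon and 110 to 308 times in MaAAD, and 7 to 38 times in FeCon and 56 to 340 times in FeAAD. No AAD library overlapped with a control of its sex. Its medians were 2.03 CPM in MaCon, 9.88 in MaAAD, 1.35 in FeCon and 9.53 in FeAAD. Its log2 fold changes of 2.27 ± 0.35 and 2.84 ± 0.34 had the lowest adjusted p of the 10 genes in both sexes, 1.16e-06 and 8.94e-09 by edgeR's quasi-likelihood test. Ciita lies at chr16:10480059-10528418 of GRCm38, and is the only one of the 10 that encodes a regulator rather than a part of the presenting machinery.

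Mice that drank BAPN without a lesion were compared with the same controls. All 10 log2 fold changes were above 0 in both sexes, from 0.44 to 1.98 in MaNonAD vs MaCon and from 0.39 to 1.66 in FeNonAD vs FeCon, but few were called. In males 1 of 10 was called higher, H2-Ob, where 0.381% of all genes were, and in females 2 of 10, Ciita and H2-Ob, where 1.67% were. H2-Ob stood at 2.34, 1.46, 2.04 and 2.40 CPM in the 4 MaNonAD libraries, all above the highest MaCon library at 1.31 CPM. Its log2 fold change was 1.98 ± 0.47 (adjusted p = 0.029, edgeR's quasi-likelihood test), and the call was lost when MaNonAD1, MaNonAD3, MaNonAD4 or MaCon8 was left out, with adjusted p between 0.052 and 0.20. In FeNonAD, H2-Ob ran from 0.399 through 0.922 to 2.10 CPM against at most 0.879 CPM in FeCon, with a log2 fold change of 1.28 ± 0.42 (adjusted p = 0.033), and the call was lost without any of 6 libraries, namely FeNonAD5, FeNonAD6, FeNonAD8, FeCon1, FeCon5 and FeCon6. Ciita in FeNonAD ran from 1.18 through 3.35 to 9.74 CPM, beside 0.521 through 1.35 to 2.52 CPM in FeCon. The groups overlapped, with FeNonAD8 highest, and the log2 fold change of 1.53 ± 0.35 (adjusted p = 0.0025) stayed called without any single library. Ciita in MaNonAD was at 6.41, 1.02, 3.61 and 3.27 CPM, with a log2 fold change of 0.76 ± 0.41 (adjusted p = 0.48). Among the other 9 genes in males and the other 8 in females, adjusted p was lowest for H2-DMb2 in MaNonAD (0.16) and H2-Oa in FeNonAD (0.10). At an unadjusted p under 0.05 the test passed for 5 genes in each sex, where 6.23% of all genes in males and 14.0% in females passed and were higher. Every NonAD library lay above every Con library for 1 of the 10 in males, H2-Ob, against 0.603% of all genes, and for 0 of the 10 in females, against 0.367%.

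AAD was then compared with BAPN treatment without a lesion, using the same AAD and NonAD libraries as above. Higher levels were called for 10 of 10 genes in FeAAD vs FeNonAD, where 6.79% of all genes were called higher, and for 0 of 10 in MaAAD vs MaNonAD, where 0.353% were. In females the log2 fold changes ran from 1.07 (H2-DMb1) to 2.16 (H2-DMb2) with adjusted p between 0.00053 and 0.0077 by edgeR's quasi-likelihood test. For 0 of the 10 did every FeAAD library lie above every FeNonAD library, as for 0.166% of all genes. FeNonAD8 had the highest level of the FeNonAD group for all 10 genes, and its H2-Ab1 level of 140.0 CPM was above the FeAAD median of 99.1 CPM. FeNonAD8 also had the highest sums of leukocyte, pan-macrophage and monocyte markers in FeNonAD, and their part in its class II levels was not tested. Without FeAAD5 the count fell to 6, as Cd74, H2-DMa and H2-DMb1 dropped just under the fold limit and H2-Oa reached an adjusted p of 0.063. H2-DMb1 also fell under the limit without FeNonAD1 (0.99) or FeAAD6 (0.97), and H2-Ob had an adjusted p of 0.055 when only these groups were fitted. In males the log2 fold changes were of 0.29 (H2-Ob) to 1.52 (H2-Oa), with a median of 1.09, and 8 genes had an unadjusted p under 0.05, where 12.3% of all genes did and were higher. The lowest adjusted p was 0.065, for Ciita, which was called without MaNonAD1, MaAAD1 or MaAAD2 (adjusted p of 0.033, 0.028 and 0.046). Every MaAAD library lay above every MaNonAD library for 1 of the 10, Ciita, and for 2.97% of all genes. The count over all genes rested on single libraries here, running from 0 to 713 when each was left out. DESeq2 called 2 of the 10 here, H2-Aa and Ciita. H2-Ob, with 0.29 ± 0.50 (adjusted p = 0.80), stood beside B cell markers whose median log2 fold change in the same comparison was -0.90, with 0 of 10 called. The MaNonAD group had 4 libraries, and for H2-Ab1 they were at 99.0, 49.5, 119.9 and 39.1 CPM, of which MaNonAD1 and MaNonAD3 were within the range of MaAAD and the other two within that of MaCon.

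**Figure D2:**
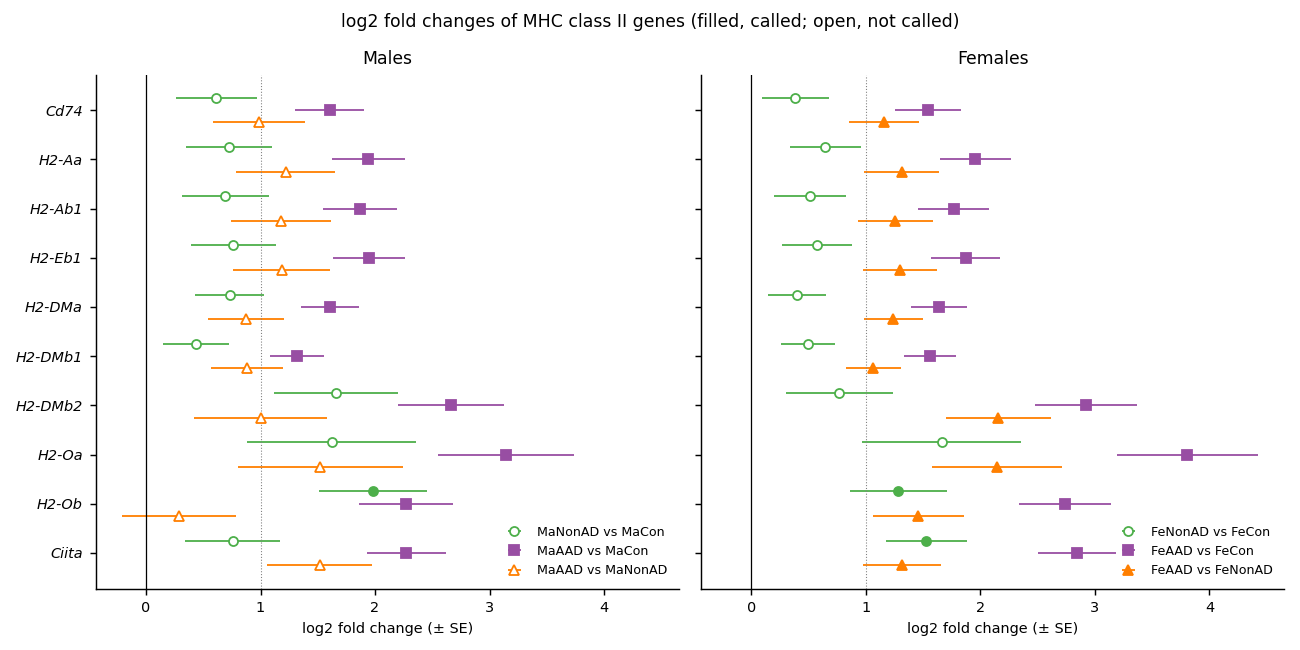
Log2 fold changes (x axis, ± SE) of the 10 genes (y axis) in the 3 comparisons within males and within females, with filled symbols for called genes. All 20 values of AAD vs Con are called, and between AAD and NonAD the 10 values in females are called and those in males are not, with values of 0.29 to 1.52.

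The sexes were then compared directly. In MaCon vs FeCon, MaNonAD vs FeNonAD and MaAAD vs FeAAD 0 of 10 genes were called in either direction, where 1.51%, 0.0485% and 0.0693% of all genes were, and no gene had an unadjusted p under 0.05 or was called by DESeq2. Log2 differences between males and females ran from -0.12 (H2-DMb2) to 0.64 (H2-Oa) in Con, from -0.15 (Ciita) to 0.92 (H2-Ob) in NonAD and from -0.38 (H2-DMb2) to 0.31 (Cd74) in AAD. The difference in response itself was tested as an interaction, the male minus the female log2 fold change. None of the 10 was called for AAD vs Con, NonAD vs Con or AAD vs NonAD, where 0.52%, 0.298% and 0.0% of all genes were called, and again 0 had an unadjusted p under 0.05 and 0 were called by DESeq2. The interaction furthest from 0 was that of H2-Ob in AAD vs NonAD, at -1.17 ± 0.62, with a raw p of 0.067 and an adjusted p of 0.9998. The contrast between 10 called genes in females and 0 in males for AAD vs NonAD thus did not pass its own test for any gene. Standard errors of the interaction in AAD vs Con ran from 0.33 to 0.88 on the log2 scale, which limits the size of sex difference that could be detected.

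The other genes of the pathway were taken from lists written by name. Of all tested genes, 9.18% were called higher in MaAAD vs MaCon and 9.94% in FeAAD vs FeCon. The counts from pathway and cell type lists stand beside these shares, and no list was tested against them. Of 9 factors that bind class II promoters or are known to act upstream of Ciita, 2 were called higher in AAD vs Con in each sex, the myeloid factors Spi1 (2.37 ± 0.35 in males, 1.96 ± 0.34 in females) and Irf8 (2.45 ± 0.30 and 2.25 ± 0.29). The other 7 were not called, but some passed the adjusted p within the fold limit. The RFX subunit gene Rfxank was lower in both sexes, at -0.36 ± 0.10 (adjusted p = 0.0046) and -0.42 ± 0.09 (adjusted p = 0.00029) in edgeR's quasi-likelihood test, and the NF-Y subunit gene Nfyc in males (-0.24 ± 0.09, adjusted p = 0.024), while Nfya was higher in females (0.43 ± 0.11, adjusted p = 0.0014). Rfx5 had log2 fold changes of 0.19 ± 0.13 and -0.24 ± 0.13. Of the interferon-γ axis, 0 of 7 tested genes were called by edgeR's quasi-likelihood test in AAD vs Con in either sex, although the receptor chain gene Ifngr2 had log2 fold changes of 0.40 ± 0.14 (adjusted p = 0.021) in males and 0.81 ± 0.13 (adjusted p = 1.72e-06) in females in AAD vs Con, under the fold limit. The cytokine gene itself, Ifng, was too low to test, with group means of 0 to 0.033 CPM.

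Among 8 genes of endosomal processing 3 were called higher in AAD vs Con in both sexes. These were Ctss, the protease that trims the invariant chain, at 3.30 ± 0.41 and 3.24 ± 0.39, the asparagine endopeptidase Lgmn, at 1.26 ± 0.20 and 1.13 ± 0.19, and the thiol reductase Ifi30, at 1.06 ± 0.29 and 1.19 ± 0.27. Of 7 turnover and trafficking genes 0 were called, although Cd82 (0.47 ± 0.12 in males, 0.45 ± 0.11 in females) passed the adjusted p in both sexes, and Cd63 (0.75 ± 0.18) and the class II ubiquitin ligase gene Marchf1 (0.36 ± 0.12) in females. Among costimulatory genes, Cd80 was called at 2.51 ± 0.33 and 2.50 ± 0.32 and Cd86 at 1.57 ± 0.28 and 1.54 ± 0.26, which with Cd40 in males made 3 of 5 tested genes in males and 2 of 5 in females. H2-Eb2, a minor β chain gene, was also called in both sexes, from means of 0.020 CPM in MaCon and 0.0063 CPM in FeCon to 0.419 CPM in MaAAD and 0.720 CPM in FeAAD. Of 14 genes of the class I pathway 1 was called in males (Psmb8) and 3 in females (Tap1, Psmb8 and Psmb9), with median log2 fold changes of 0.34 and 0.43, and B2m, the class I light chain, had 0.34 ± 0.14 and 0.19 ± 0.13. The coactivator of class I genes, Nlrc5, was at 0.91 ± 0.23 and 0.99 ± 0.22, also under the fold limit.

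Markers of several cell types known for class II were also higher. In AAD vs Con 9 of 10 pan-macrophage markers, 6 of 6 tested monocyte markers, 5 of 7 cDC1 markers and 7 of 10 cDC2 and pan-cDC markers were called higher in each sex. Of 10 tested B cell markers 5 were called higher in MaAAD and 10 in FeAAD, while of 9 resident macrophage markers 3 and 2 were. Of 4 tested plasmacytoid dendritic cell markers 0 were called higher in either sex and 1 was called lower in males, with median log2 fold changes of -0.29 and -0.06. Of 4 tested lymph node stroma markers 2 were called higher in each sex, Ccl19 and Tnfsf11 in males and Ccl21a and Tnfsf11 in females, and Glycam1, of the same list, was at 0 in MaCon and MaNonAD. Of 7 tested CD4 T cell markers, 0 were called in males and 1, Icos, in females. Summed pan-macrophage levels had medians of 589.1 CPM in MaCon and 1868 CPM in MaAAD, and of 648.7 CPM in FeCon and 1358 CPM in FeAAD, with FeAAD5 at 5903 CPM and MaAAD7 at 3979 CPM. Leukocyte markers were called higher for 7 of 8 in each sex, and neutrophil markers for 5 of 7 tested in males and 7 of 7 in females, where FeAAD5 held a sum of 1157 CPM against a FeAAD median of 17.6 CPM. Fibroblast markers were called higher for 3 of 7 in each sex, namely the matrix genes Lum, Col1a1 and Col3a1, with median sums of 11280 CPM in MaCon, 19460 in MaAAD, 10190 in FeCon and 16900 in FeAAD. The median log2 fold change over the 7 was 0.38 in males and -0.01 in females. The fibroblast sum had an r of 0.565 to 0.622 with Cd74, the classical chains and Ciita within groups. Endothelial markers gave 0 calls of 6 in either sex, and smooth muscle markers 4 of 7 lower in each. Of 7 heart muscle markers 0 were called in males and 4 lower in females, with median log2 fold changes of -0.60 and -1.37. Their sum was highest in FeCon10 among females (612.7 CPM, FeCon median 130.2) and in MaAAD7 among males (375.6 CPM, MaAAD median 68.4). The part of these cell types in the rise of the class II genes was not tested.

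To see how class II levels moved against single genes of those cells, log2 ratios of counts were formed within each library, where library size cancels. There were 36 comparisons, of 6 ratios in 6 pairs of groups, each by a two-sided exact permutation test with Benjamini-Hochberg adjustment. H2-Ab1 rose less than Itgax, the integrin chain CD11c of dendritic cells and some macrophages. Its log2 ratio to Itgax averaged 4.38 (SD 0.55) in MaCon and 3.31 (SD 0.69) in MaAAD, and 4.42 (SD 0.32) in FeCon and 3.32 (SD 0.53) in FeAAD. The differences were -1.06 in males (adjusted p = 0.021, exact permutation test) and -1.09 in females (adjusted p = 0.00039), where every FeAAD library lay below every FeCon library. In FeNonAD the ratio was intermediate, 0.45 below FeCon (adjusted p = 0.036, exact permutation test) and 0.65 above FeAAD (adjusted p = 0.020), and without FeNonAD8 the former had an adjusted p of 0.056. In males NonAD differed from Con by -0.02 (adjusted p = 0.975, exact permutation test), and whether the sexes differed in this was not tested. Against Ptprc, the pan-leukocyte CD45 gene, the ratio of H2-Ab1 fell by 0.64 in FeAAD vs FeCon (adjusted p = 0.036, exact permutation test). In males the difference of -0.54 did not pass (adjusted p = 0.36, exact permutation test). The SD was 1.13 in MaCon and 0.53 in FeCon, and MaCon2 lay at 0.34 where the next lowest MaCon library had 1.90. MaCon2 also had the highest sum of thymocyte markers of its group, and the ratio was not recomputed without it. Against Csf1r, the receptor that marks macrophages, no difference passed, and the values of AAD vs Con were 0.34 in males and 0.49 in females.

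Against B2m the direction was the opposite, with H2-Ab1 rising more than the class I light chain. The log2 ratio of H2-Ab1 to B2m averaged -3.19 (SD 0.37) in MaCon and -1.71 (SD 0.55) in MaAAD, a difference of 1.48 (adjusted p = 0.0012, exact permutation test), with every MaAAD library above every MaCon library. In females it averaged -3.48 (SD 0.64) in FeCon, -2.92 (SD 0.68) in FeNonAD and -1.88 (SD 0.38) in FeAAD. FeAAD differed from FeCon by 1.61 (adjusted p = 0.00039, exact permutation test) and from FeNonAD by 1.04 (adjusted p = 0.017). Ciita rose more than H2-Ab1 in females, by 1.08 in FeAAD vs FeCon (adjusted p = 0.024, exact permutation test) and by 0.92 in FeNonAD vs FeCon (adjusted p = 0.036), of which the latter had an adjusted p of 0.056 without FeNonAD8. In males the ratio of Ciita to H2-Ab1 differed by 0.48 in MaAAD vs MaCon (adjusted p = 0.28), and whether the sexes differed in it was not tested. H2-Ob rose more than H2-DMb1, by 1.07 in MaAAD vs MaCon (adjusted p = 0.036, exact permutation test) and by 1.74 in MaNonAD vs MaCon (adjusted p = 0.036), comparisons that share the MaCon libraries. The corresponding female differences of 1.00 and 0.76 had adjusted p of 0.087 and 0.10. Without any 1 of the 4 MaNonAD libraries the adjusted p of the MaNonAD difference was 0.063 to 0.084, and with a prior of 2 counts in place of 0.5 that of the MaAAD difference was 0.065.

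**Figure D3:**
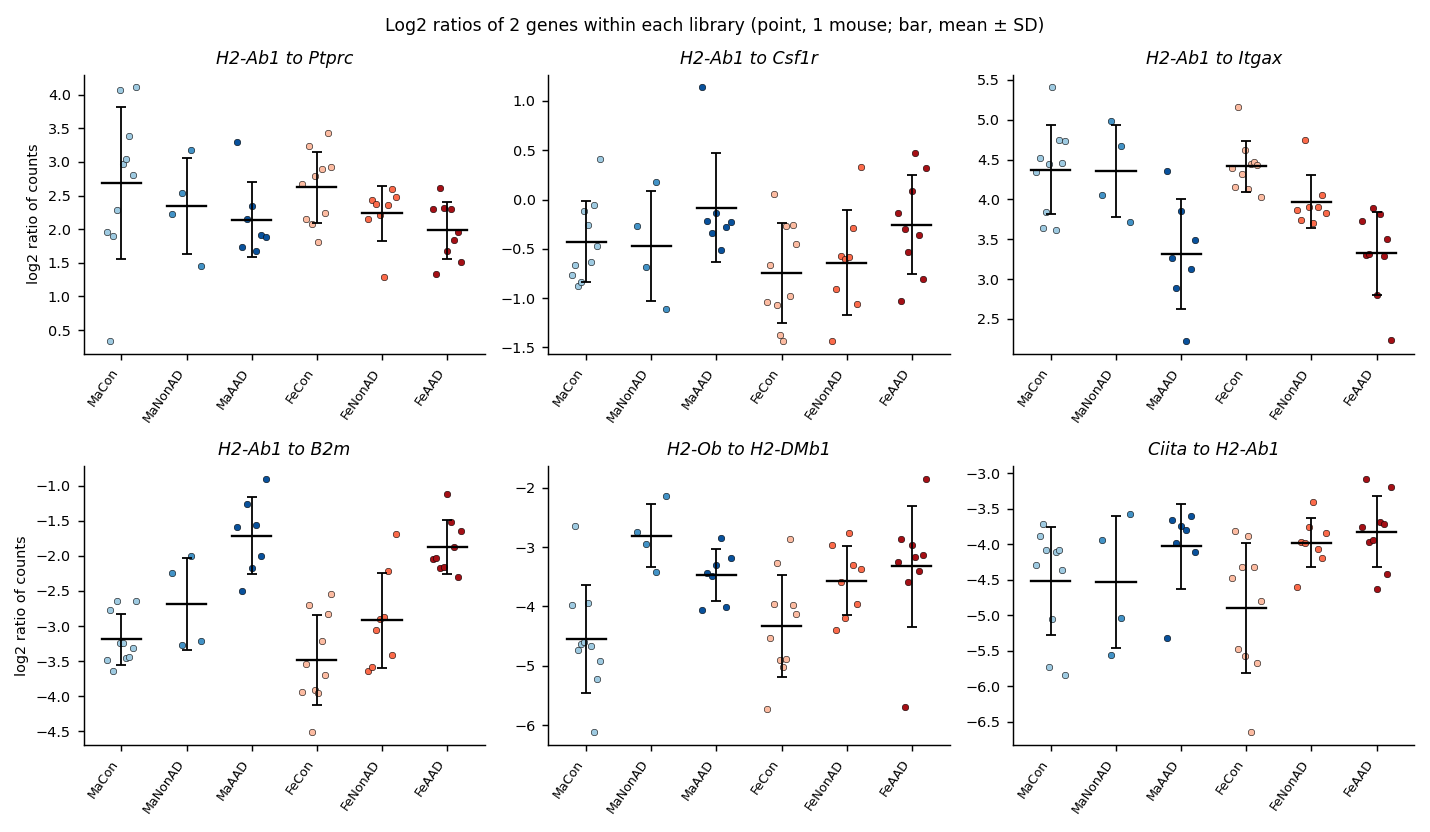
Log2 ratios of counts of 2 genes within each library (y axis) for the 6 groups (x axis), with 1 point per mouse and bars for the mean ± SD. H2-Ab1 falls against Itgax and rises against B2m from Con to AAD in both sexes.

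Within groups the 10 genes did not vary as 1 block. Correlations were computed over the 48 libraries on log2(CPM + 1) after subtracting each group's mean, and are descriptions of libraries that share their tissue dissection and depth. Cd74, H2-Aa, H2-Ab1 and H2-Eb1 had Pearson's r of 0.967 to 0.986 with each other. H2-DMa and H2-DMb1 followed them at 0.885 to 0.928. H2-DMb2, H2-Oa and H2-Ob had 0.854 for H2-DMb2 and H2-Oa, 0.753 for H2-DMb2 and H2-Ob and 0.716 for H2-Oa and H2-Ob among themselves, and 0.515 to 0.632 with the classical chains and Cd74. H2-DMa went with both sets, at 0.762 with H2-Oa, 0.739 with H2-DMb2 and 0.596 with H2-Ob. Ciita had 0.508 to 0.622 with Cd74 and the classical chains. H2-DMb1 and H2-DMb2, although near-identical in sequence, had an r of 0.553. H2-DMb2, H2-Oa, H2-Ob and Ciita were also the genes with the fewest counts. In FeCon they had 3 to 31, 0 to 4, 1 to 12 and 7 to 38 counts per library, while H2-DMb1 had 62 to 196. The part of counting error in their lower r was not tested.

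The nearest genes outside the pathway differed in the same way. For H2-Ab1 they were Fcrls (r of 0.866), Cmtm3, C1qb, Pld4 and Tmem176b, of which C1qb encodes a complement chain made by macrophages. For Ciita they were Ccr2 (0.837), the chemokine receptor of recruited monocytes, then Ptpre, Dclk1, Pappa and Rai14, and for H2-Ob they were Il21r (0.794), a lymphocyte cytokine receptor, then Arhgap4, Dennd1c, Il2rg and Cd52. Against summed marker levels, Ciita had its highest r with cDC1 markers (0.807), a list that contains Irf8, and one of -0.06 with resident macrophage markers, with which Cd74 had 0.528. The sums are of CPM, so the most abundant markers of a list weigh most. The plasmacytoid dendritic cell sum had medians of 80.8 CPM in MaCon and 111.0 CPM in MaAAD. The median log2 fold change of its tested markers was -0.29 there. Lymph node stroma markers had 0.649 to 0.718 with Cd74 and the classical chains. The smooth muscle sum had negative values with all 10 genes, from -0.61 (Ciita) to -0.19 (H2-DMb1).

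**Figure D4:**
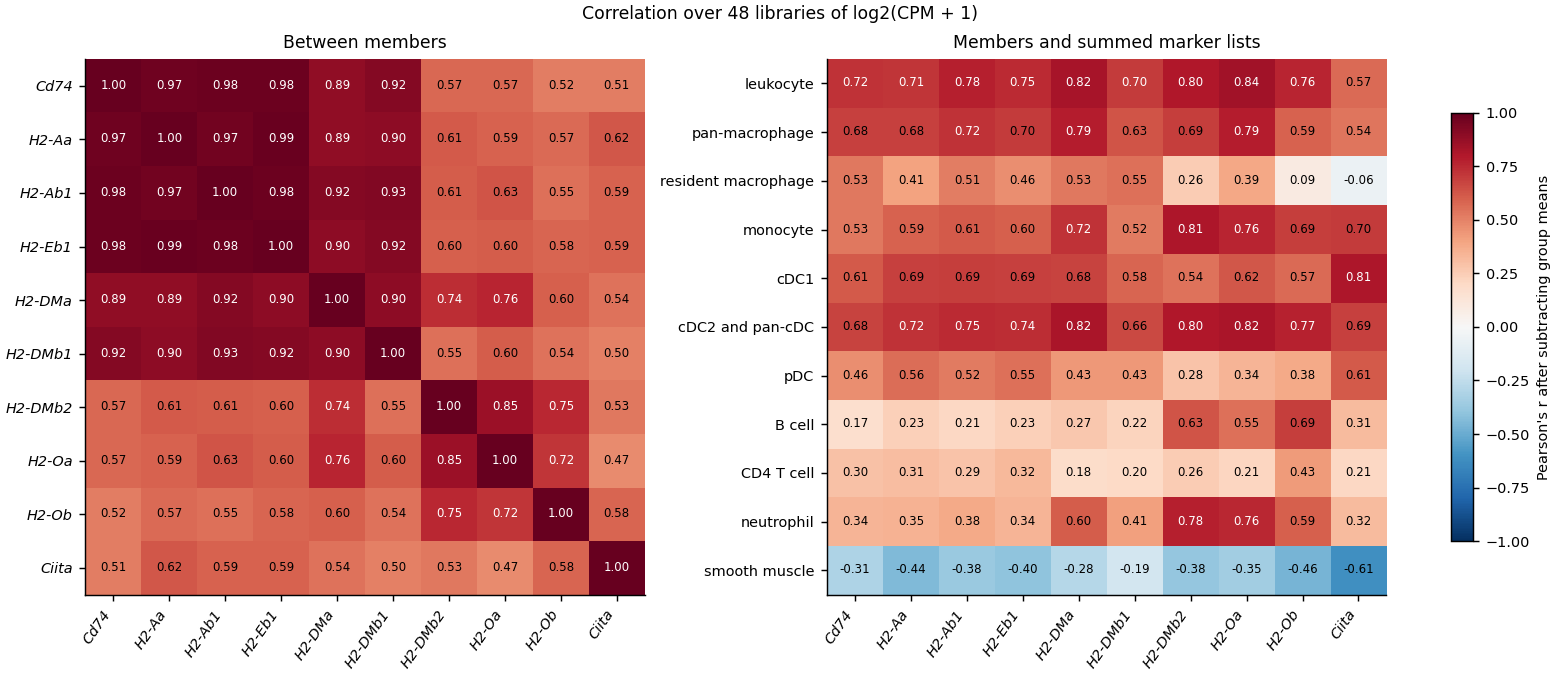
Pearson's r over 48 libraries after subtracting group means, between the 10 genes (left) and between each gene and the summed CPM of marker lists (right), on a scale from -1 to 1. Cd74, the classical chains, H2-DMa and H2-DMb1 form a block of 0.885 and above, and the B cell row is highest for H2-Ob, H2-DMb2 and H2-Oa.

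B cell markers went with the DO pair and H2-DMb2 more than with the classical chains, as did some other lists. The B cell sum had an r of 0.694 with H2-Ob, 0.627 with H2-DMb2 and 0.553 with H2-Oa, but 0.170 to 0.235 with Cd74, H2-Aa, H2-Ab1 and H2-Eb1. The neutrophil sum had 0.756 with H2-Oa and 0.595 with H2-Ob against 0.336 to 0.378 with the same 4 genes, and the thymic epithelium sum 0.467 and 0.472 against 0.104 to 0.137. The B cell sum was not the list closest to the DO pair, since the cDC2 and pan-cDC sum had 0.819 with H2-Oa and 0.769 with H2-Ob, and the leukocyte sum 0.841 and 0.763. The sum ran from 1.27 to 9.09 CPM in MaCon, from 10.4 to 30.4 in MaNonAD, from 3.72 to 15.1 in MaAAD, from 1.10 to 3.55 in FeCon, from 2.10 to 11.9 in FeNonAD and from 3.77 to 41.6 in FeAAD. All 11 markers had counts in every group. MaNonAD thus lay wholly above MaCon in these markers, and 6 of 10 tested were called higher there, among them Ms4a1 (2.75 ± 0.50) and Cd22 (2.99 ± 0.55), beside the call of H2-Ob in the same comparison. FeAAD9, with the highest B cell sum, had the highest H2-Ob level of 5.80 CPM but an H2-Ab1 level of 85.3 CPM, under its group's median. FeAAD3, with the lowest B cell sum of FeAAD, had the lowest H2-Ob level of 0.309 CPM, and its sums of cDC1, cDC2 and pan-cDC, pan-macrophage and leukocyte markers were also the lowest of the group. In FeNonAD vs FeCon, where H2-Ob was also called, 1 of the 10 B cell markers was. The part of B cells in the level of H2-Ob was not tested.

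**Figure D5:**
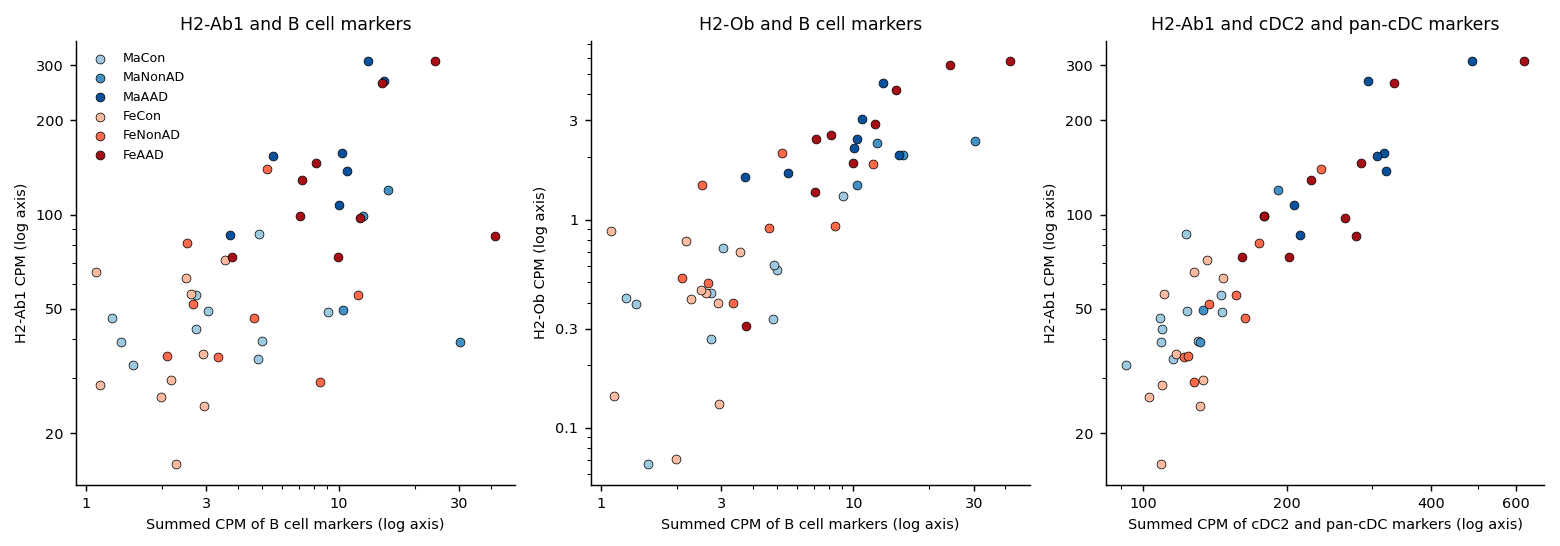
Levels of H2-Ab1 and H2-Ob (CPM, log axis) against the summed CPM of 11 B cell markers or 10 cDC2 and pan-cDC markers (log axis), with 1 point per mouse colored by group. Within groups the r with the B cell sum is 0.694 for H2-Ob and 0.209 for H2-Ab1, and that with the dendritic cell sum is 0.746 for H2-Ab1 and 0.769 for H2-Ob, which is not plotted.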

How the data were processed

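Thoracic aortas of 48 mice were sequenced from strand-specific mRNA libraries. The authors deposited expected counts per gene, which per the submitters' processing notes came from Bowtie2 and RSEM 1.3.1 on GRCm39, and 4.99% of values were not whole. Values were rounded, and library totals had a median of 15681340. Standard errors of genes with low counts cover counting error and the spread between mice, but not the uncertainty of sharing reads between genes. Groups were taken from the sample labels. The 10 genes and all gene lists were chosen with earlier results of these data known. Genes named from each list were all members, or those with the 2 lowest adjusted p in FeAAD vs FeCon or in MaAAD vs MaCon. Others in the pathway lists were named after their values were seen, and for H2-Ab1, Ciita and H2-Ob the 5 genes of highest correlation were added.

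Counts were tested in edgeR 4.0.16 (R 4.3.3) by the robust quasi-likelihood test with filterByExpr and TMM, whose factors ran from 0.874 to 1.08, with 1 mean for each of 6 groups. Each standard error was approximated by dividing the log2 fold change by the root of its F statistic. The fit was tested on simulated data. Ratios had a prior of 0.5 counts. Alternatives were DESeq2 1.42.0, its size factors, no filter on low counts (18614 genes), adjusted p alone, no robust estimation, the compared groups only, a replicate block and leaving out each library, of which 43 were added after seeing the data. CPM used TMM-scaled totals. Transcript lengths and positions were from GENCODE M21 and promoters from RefSeq, both on GRCm38, a different build from the authors', and the files hold no coordinates. Whether the counting used strand was not given in the sources used here, so reads of antisense neighbors of Ciita, H2-Eb1 and H2-DMa cannot be told apart from theirs. The values of 1 listed gene are not reported here.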

Additional observations from a re-analysis of the deposited data

Results flagged for a closer look

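Of 60 sets of values, 10 genes in 6 groups, 7 had a highest library whose gap to the next was large for the group's range by Dixon's criterion, which chance gives in about 1 of 20 sets. MaCon10 was such a library for Cd74 (325.2 CPM, next 198.2), H2-Ab1 (86.46, next 55.31), H2-Eb1 (81.49, next 50.85) and H2-DMb1 (19.43, next 11.79). H2-DMb2 was highest in MaAAD7 (12.29 CPM, next 4.58). H2-Oa was highest in MaCon2 (0.5887 CPM, next 0.2689), the control with the highest sum of thymocyte markers, and in FeAAD5 (6.268 CPM, next 1.978). The cause of these values was not tested.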

How the results depend on the processing

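Over the alternatives run, 1356 log2 fold changes of single genes kept their direction and call, 6 gained and 18 lost a call, and none reversed. Of the counts of called genes, 307 stayed within 1.5 times of the value reported and 17 moved. In MaNonAD vs MaCon the count of 1 became 2 when only the compared groups were fitted, and was 0 to 1 when 1 library was left out. In FeNonAD vs FeCon the count of 2 was 1 to 2 without single libraries, and 1 with a replicate block. In MaAAD vs MaNonAD the count of 0 was 2 in DESeq2 and 0 to 1 without single libraries, and over all genes this comparison moved from 51 called genes to 518 in DESeq2, 168 with DESeq2's size factors, 99 without robust estimation and 0 with no filter, a replicate block or the compared groups only. It was 713 without MaAAD1, 378 without MaAAD2, 356 without MaNonAD1, 323 without MaAAD4 and 0 without any of the other 7 libraries. In MaNonAD vs MaCon the compared groups alone gave 154 called genes in place of 69, leaving out single libraries gave 17 to 86, and in the sex difference in AAD vs Con and in NonAD vs Con DESeq2 gave 129 in place of 75 and 94 in place of 43. Without single libraries these 2 counts ran from 49 (without FeCon10) to 150 (without FeCon2) and from 12 (without MaNonAD1) to 117 (without FeCon2), and those of the 10 genes stayed at 0. For MaAAD vs FeAAD the compared groups alone and the replicate block each gave 5 in place of 10. Without single libraries that count ran from 6 (without MaAAD5) to 11 (without FeAAD4). In FeAAD vs FeNonAD the count of 10 was 6 to 10 without single libraries and 9 with the compared groups only. Libraries with the same number in their names deviated together in no comparison for every pair, with mean correlations from -0.06 to 0.14, so the numbers pair nothing. The replicate block changed no other call of the 10 genes, and over all genes its counts were lower in the within-sex comparisons.

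Of the ratios, 80 alternatives kept their direction and call, 7 lost the call and 9 reversed, all of differences that were not called. Without single libraries H2-Ab1 to Ptprc in MaAAD vs MaNonAD ran from -0.50 to 0.073, H2-Ab1 to Csf1r in MaNonAD vs MaCon from -0.26 to 0.17, and H2-Ab1 to Itgax in MaNonAD vs MaCon from -0.23 to 0.20, where a prior of 2 counts gave 0.0051. Ciita to H2-Ab1 in MaNonAD vs MaCon ran from -0.33 to 0.33, and H2-Ab1 to Csf1r in FeNonAD vs FeCon was -0.030 without FeNonAD8. The cause was not tested. Ratios were recomputed only without MaNonAD libraries and FeNonAD8. Depth limits H2-Oa and H2-Ob, which had few counts in controls.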
